A study of Mus musculus with 14 samples.

Results

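MiR-146a and miR-146b are the 2 mouse members of the miR-146 family, and both reached their highest level in the adult lung. They were chosen by assay number, 468 for miR-146a and 1097 for miR-146b, which gave 2 of the 516 deposited rows. Both were measured in all 14 samples. The rule used no value, but the 2 members were chosen with earlier results of these data known. The names come from that rule: the rows carry numbers only, and the run files list both names on card A under catalogue numbers, so that the pairing of number and name could not be checked in the files. The study profiled total RNA of pooled whole lungs from untreated ICR mice, an outbred strain, at 7 time points with 2 samples each, in order to find miRNAs whose expression changes while the lung forms. Lungs were taken on embryonic days 12, 14, 16 and 18 (E12, E14, E16, E18), on postnatal days 2 and 10 (P2, P10) and in the adult, whose age in days the labels do not give. The labels give the gender as female without saying whether this refers to the dams or to the lungs, and no source used here states whether separate pools of animals gave the 2 samples of an age. P-values therefore cover no more than the spread between the samples at hand, and that spread may be technical.

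MiRNAs repress mRNAs that pair with their seed, the short stretch near the 5′ end of the mature strand. The miR-146 family is known as a brake on innate immune signalling: transcription of the miR-146a gene is induced by NF-kB downstream of Toll-like and interleukin-1 receptors, and the miRNA represses Irak1, a kinase, and Traf6, an adaptor, of the same pathway. In human cells, a response of miR-146a to inflammatory cytokines has been described in lung epithelium and airway smooth muscle as well as in immune cells. MiR-146b comes from a separate gene and shares the seed.

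The mature sequences are printed from RefSeq (GRCm38.p6) to show how little separates the 2 miRNAs, with the seed, bases 2 to 8, in capitals. Both were matched by name, and the files do not hold the sequences of the assays themselves.
miR-146a: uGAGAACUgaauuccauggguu
miR-146b: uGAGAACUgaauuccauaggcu
Both are 22 bases long and identical at 20 positions. The differences are G18A and U21C, with the base of miR-146a first, its position counted from 1 at the 5′ end, and then the base of miR-146b. The seed GAGAACU was carried by 2 of the 1738 mature miRNAs in the table, which are these 2. Detection of one miRNA by the other's assay was not tested.

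The hairpins, printed to show where the shared strand lies in each precursor, have the mature strand in capitals.
Mir146: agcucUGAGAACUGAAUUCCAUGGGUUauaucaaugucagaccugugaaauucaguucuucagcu
Mir146b: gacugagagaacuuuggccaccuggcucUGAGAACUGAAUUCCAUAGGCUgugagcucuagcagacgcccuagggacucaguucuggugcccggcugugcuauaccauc
The Mir146 hairpin has 65 bases at chr11:43374397-43374461 on the minus strand, with the mature strand at chr11:43374435-43374456. The Mir146b hairpin has 109 bases at chr19:46342762-46342870 on the plus strand, with the mature strand at chr19:46342790-46342811. In the RefSeq gene table Mir146 overlapped no other gene and had Atp10b and Gm5782 as its nearest neighbours. Mir146b overlapped the long noncoding RNA gene Gm36493 and had Cuedc2 and 2310034G01Rik as its nearest neighbours.

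Levels are given as ΔCT, the threshold cycle of the miRNA minus that of U6, the small nuclear RNA that served as the internal control. The value runs against the level, so that a ΔCT lower by 1 cycle stands for a level higher by a factor of 2 if each cycle doubles the product. Between 272 and 335 assays were measured per sample. Values moved in steps close to whole cycles: in each sample 70.1% to 89.1% of all values lay within 0.1 cycle of the same decimal as miR-146a, so that a difference below about 1 cycle between single samples is not resolved. An SD of 2 samples that fell on the same step is therefore close to 0, and SEs and p-values carry these steps too. Each sample was also scaled to the mean ΔCT of those 219 assays that had a value in every sample (the global mean). The reason was that the median of all assays on the U6 scale moved by about 1 cycle between E18 and P2 (-1.13 on the log2 scale). In these bulk samples, fewer cells of a type and less RNA per cell cannot be told apart. The tissue label was not checked against marker miRNAs, since the other rows have no miRNA name paired with them.

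MiR-146a had ΔCT values of 12.02 and 11.15 at E12 and of 11.23 and 11.15 at E14. At E16 they were 9.08 and 8.21, and at E18 7.08 and 7.09. The postnatal lungs had 7.18 and 6.26 at P2, 6.06 and 6.06 at P10, and 5.14 and 5.17 at the adult stage. The 2 samples of an age lay within 0.1 cycle of each other at E14, E18, P10 and adult, and close to 1 cycle apart at E12, E16 and P2. Mean ΔCT was 11.59 ± 0.614 at E12, 8.64 ± 0.611 at E16, 7.08 ± 0.00675 at E18 and 5.15 ± 0.0205 in the adult (SD, n = 2 each). The order of the means followed age at every step, but E12 and E14, and likewise E18 and P2, were neighbours whose samples overlapped.

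MiR-146b had ΔCT values of 13.02 and 12.15 at E12 and of 13.23 and 13.15 at E14. At E16 they were 12.09 and 12.24, and at E18 9.05 and 10.11. The postnatal lungs had 9.18 and 9.28 at P2, 8.08 and 8.05 at P10, and 5.10 and 6.17 at the adult stage. Its mean level was lowest at E14 rather than E12, and its E16 samples overlapped those of E12. Mean ΔCT was 12.58 ± 0.609 at E12, 13.19 ± 0.0555 at E14, 12.16 ± 0.110 at E16, 9.58 ± 0.748 at E18 and 5.64 ± 0.757 in the adult (SD, n = 2 each). The P2 samples lay between the 2 E18 samples, so that these neighbours in the order of levels were not separated.

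**Figure D1:**
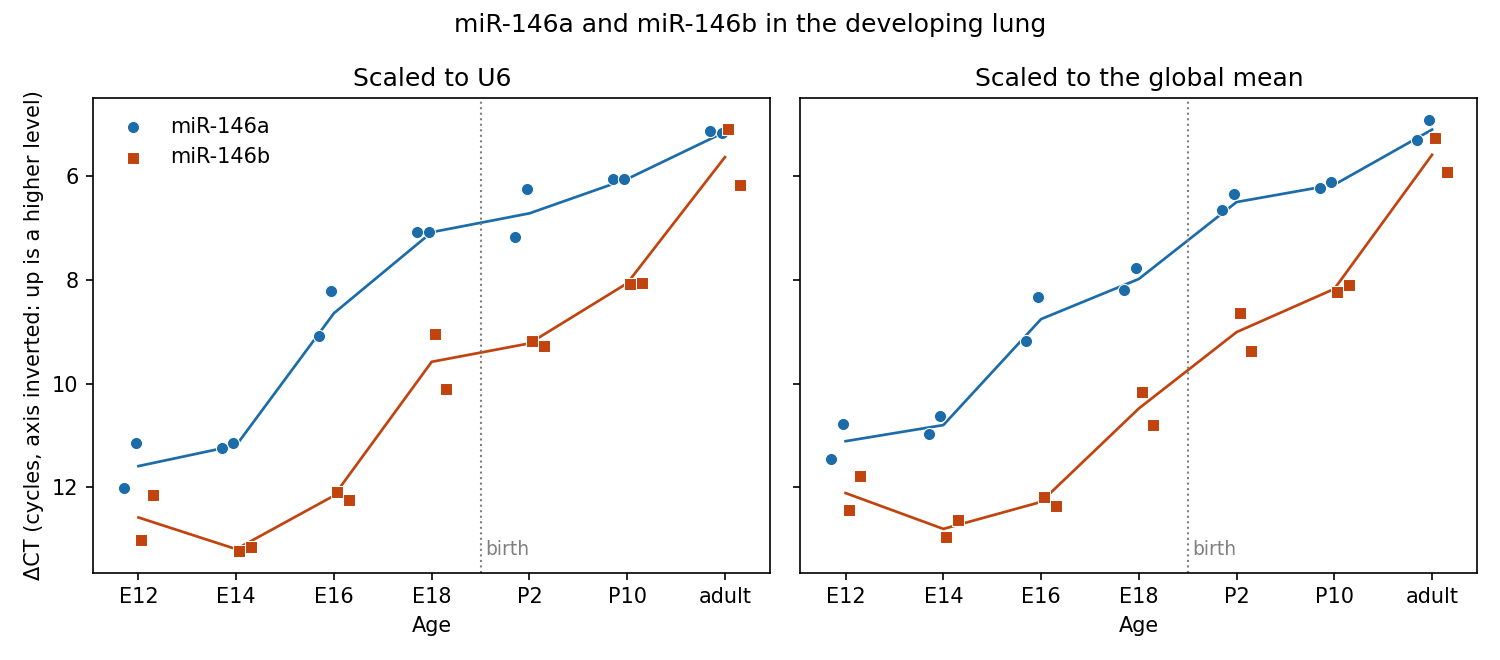
ΔCT of miR-146a (circles) and miR-146b (squares) in each of the 14 samples by age, scaled to U6 (left) and to the global mean (right), with the vertical axis inverted so that up is a higher level; lines join the means of 2 samples and the dotted line marks birth. On the U6 scale miR-146a covers most of its climb between E14 (mean ΔCT 11.19) and E18 (7.08), whereas miR-146b is at 12.16 at E16, 9.58 at E18 and 5.64 in the adult.

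Expression of both miRNAs changed over the time course. The range of the 7 means was 6.43 cycles for miR-146a, a factor of 86.5, and 7.55 cycles for miR-146b, a factor of 187. The moderated F test of limma over the 7 ages, with Benjamini-Hochberg adjustment over the 350 assays tested, gave an adjusted p of 2.07e-05 for each, where 56.9% of all assays passed an adjusted p below 0.05. Both also met 3 criteria adapted from those the authors set for a dynamically regulated miRNA, which 22.9% of the assays met here. The first was an adjusted p below 0.05 from the moderated F test. The others were a mean ΔCT under 10 at 1 age or more and means that spanned over 2.2 cycles. The authors used another test and threshold for p, and defined the range by the maximal and minimal values across the time points. For miR-146b they reported a larger fold change than the range of means gave here.

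In the adult lung both miRNAs were much higher than at E12. MiR-146a was higher by 6.43 on the log2 scale (SE 0.437), or 86.5-fold, and miR-146b by 6.95 (SE 0.480), or 123-fold, with an adjusted p of 6.17e-06 from limma for each. The adult and E12 samples did not overlap for either miRNA, as was so for 45.7% of the 219 assays measured in all samples. Of the 350 assays 24.6% were called higher in the adult, and the median of all assays moved by 0 between these ages. Among the 219 assays measured in all samples the median was 0.45. MiR-146b had the 5th and miR-146a the 8th highest rise of the 350, with 4 and 7 assays above them. No adult sample shared with an E12 sample the day on which its card A run file was last saved, so that day and age cannot be told apart here. With that day as a random block the differences were 6.42 for miR-146a and 6.94 for miR-146b, which does not separate day from age.

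The rise carried both miRNAs from the middle of the measured assays to near the top. MiR-146a ranked 16th of 290 and 9th of 273 measured assays in the adult samples, against 141st of 330 and 120th of 315 in the E12 samples. MiR-146b ranked 11th of 290 and 23rd of 273 in the adult samples, against 179th of 330 and 149th of 315 in the E12 samples. A rank within a sample is unaffected by a shift of all assays, but it sets different assays against each other, whose amplification efficiencies were not used here. MiR-146a was already among the upper ranks by E16, at 53rd of 330 and 40th of 335, where miR-146b was 166th and 181st.

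**Figure D2:**
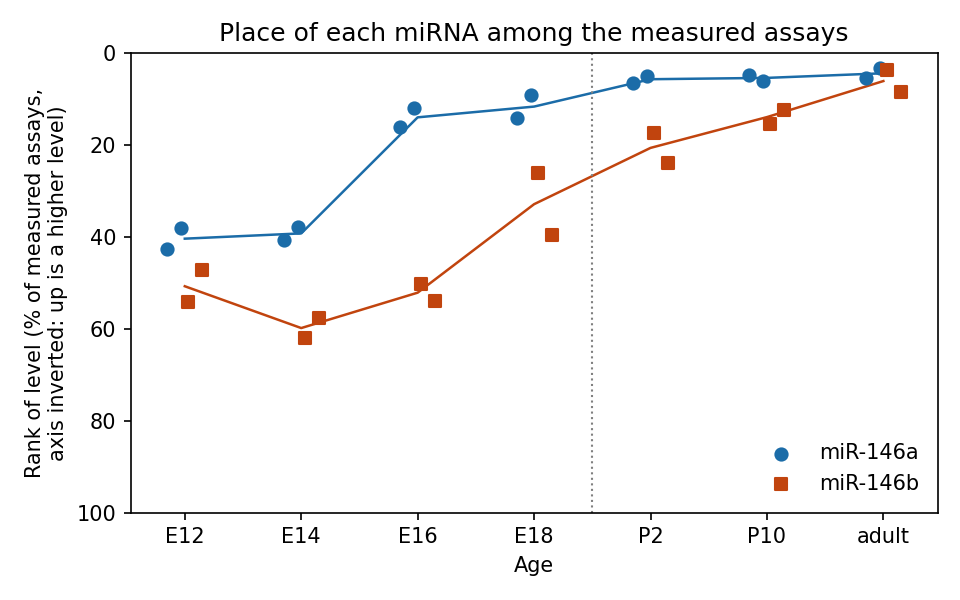
Rank of the level of miR-146a (circles) and miR-146b (squares) in each sample by age, as a percent of the assays measured in that sample, with rank 1 the highest level and the vertical axis inverted; lines join the means of 2 samples and the dotted line marks birth. MiR-146a moves to 16.1% and 11.9% at E16, while miR-146b is still at 50.3% and 54.0% there and reaches 3.79% and 8.42% in the adult.

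The 6 postnatal samples, from P2 to adult, were compared with the 8 embryonic samples, from E12 to E18. MiR-146a had postnatal ΔCT values from 5.14 to 7.18 with a median of 6.06, and embryonic values from 7.08 to 12.02 with a median of 10.11. MiR-146b had postnatal values from 5.10 to 9.28 with a median of 8.07, and embryonic values from 9.05 to 13.23 with a median of 12.20. On the U6 scale the groups overlapped narrowly for both: for miR-146a P2 replicate 1 lay at 7.18, against 7.08 and 7.09 at E18, and for miR-146b both P2 samples lay below the level of E18 replicate 1. A complete separation in this direction was seen for 0.457% of the 219 assays measured in all samples.

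The mean of the 3 postnatal ages exceeded that of the 4 embryonic ages by 3.65 on the log2 scale for miR-146a (SE 0.236, 12.5-fold, adjusted p = 2.32e-06) and by 4.23 for miR-146b (SE 0.259, 18.8-fold, adjusted p = 1.90e-06; limma). Here 20% of the assays were called higher. The rise of miR-146b was the highest of the 350 assays and 3 assays rose more than miR-146a. MiR-146b kept that place under the global mean and all other alternatives run, except without E18 replicate 2 and without P2 replicate 1, where 1 other assay rose more. Its place could not change under the ordinary linear model, the variance trend or the replicate block, which leave every difference as it was. Global mean scaling shifts all measured values of a sample alike. An exact permutation test that shuffled the 14 samples singly gave a two-sided p of 0.00300 for miR-146a and of 0.00133 for miR-146b. It treats the 2 samples of an age as independent, so that its p-values are too small if the age is the unit. Scaled to the global mean, postnatal and embryonic samples did not overlap for either miRNA: for miR-146a the postnatal values ended at 6.65 and the embryonic ones began at 7.77, and for miR-146b the limits were 9.37 and 10.17. On that scale 11.4% of the 219 assays showed no overlap. The exact permutation p values were 0.000999 and 0.000333, of which the second is the smallest that shuffling single samples allows.

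The successive steps that passed the test were not the same for the 2 miRNAs, and no single step was tested for a difference between them. Between E14 and E16 miR-146a passed, being 2.55 higher at E16 on the log2 scale (SE 0.437, 5.84-fold, adjusted p = 0.0310), where 0.857% of the assays were called higher. MiR-146b was higher at E16 by 1.02 (SE 0.480, adjusted p = 0.341), where 106 of the 350 assays rose more and the median of all assays was 0.52. The call of miR-146a was lost without any 1 of 8 libraries. Without either sample of E14, E16, P10 or adult the adjusted p lay above 0.05 and reached 0.171, with a difference of 2.11 to 2.98 throughout. With the day of the card A run file as a random block it was 0.0665. E14 and E16 samples shared no such day. Scaled to the global mean, the difference of miR-146a was 2.04 with an adjusted p of 0.0379, where 1.43% of the assays were called higher.

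Between E16 and E18 it was miR-146b that passed the test. Its level was 2.58 higher at E18 (SE 0.480, 5.99-fold, adjusted p = 0.0148), where 4.86% of the assays were called higher and the median moved by 0.57. The call was lost without E16 replicate 1, E16 replicate 2 or E18 replicate 1, with adjusted p values of 0.0568, 0.0597 and 0.0905. MiR-146a was higher by 1.56 at this step (SE 0.437, adjusted p = 0.0639), and it passed the threshold without either E12 sample (adjusted p = 0.0473) or either P2 sample (0.0435). Scaled to the global mean miR-146b was 1.79 higher at E18, with an adjusted p of 0.0406, where 2% of the assays were called higher. Among the 3 samples of these ages whose card A run files were last saved on the same day, the differences were 1.57 for miR-146a and 3.11 for miR-146b.

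Across birth neither member passed the test on the U6 scale, while most assays were lower. MiR-146a differed by 0.36 between P2 and E18 (SE 0.437, adjusted p = 0.543) and miR-146b by 0.36 (SE 0.480, adjusted p = 0.584), where the median of all assays was -1.13, 0% of the assays were called higher by limma and 23.1% were called lower. In place of 81 assays, 14 were called when E18 replicate 1 was left out, and 23 when P2 replicate 1 was. At an unadjusted p below 0.05 limma and an ordinary linear model each had 1 of the 350 assays higher at P2. Only 25 assays rose more than miR-146a and 28 more than miR-146b. Scaled to the global mean, the differences were 1.48 (adjusted p = 0.0660) and 1.47 (adjusted p = 0.0765), where 0.286% of the assays were called higher and 2% lower. When only the 219 assays measured in all samples were tested on that scale, an alternative chosen after the values were seen, both passed, with adjusted p values of 0.0151 and 0.0168, where 4.57% of the assays were called higher. Among the 350 assays neither miRNA passed on either scale. Between P2 replicate 1 and E18 replicate 2, the only pair of these ages that shared a card A day, the differences were -0.09 for miR-146a and 0.93 for miR-146b on the U6 scale, and 1.12 and 2.15 when scaled to the global mean.

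Between P10 and the adult miR-146b passed again. It was higher in the adult than at P10 by 2.43 on the log2 scale (SE 0.480, 5.39-fold, adjusted p = 0.0177), where 3.71% of the assays were called higher. Scaled to the global mean this difference was 2.58, with an adjusted p of 0.00436, where 5.14% were called higher. The call on the U6 scale was lost without adult replicate 1 (difference 1.89, adjusted p = 0.0679), P10 replicate 1 (0.0841) or P10 replicate 2 (0.0716). MiR-146a was 0.91 higher in the adult than at P10 (SE 0.437, adjusted p = 0.253). In the single pair with the same card A day the differences were 2.95 for miR-146b and 0.92 for miR-146a. The step between P2 and P10 passed for neither, at 0.66 for miR-146a (adjusted p = 0.380) and 1.16 for miR-146b (adjusted p = 0.155), where 3.71% of the assays were called higher. Nor did that between E12 and E14, at 0.40 (adjusted p = 0.731) and -0.60 (adjusted p = 0.631), where 1.71% were called in either direction.

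**Figure D3:**
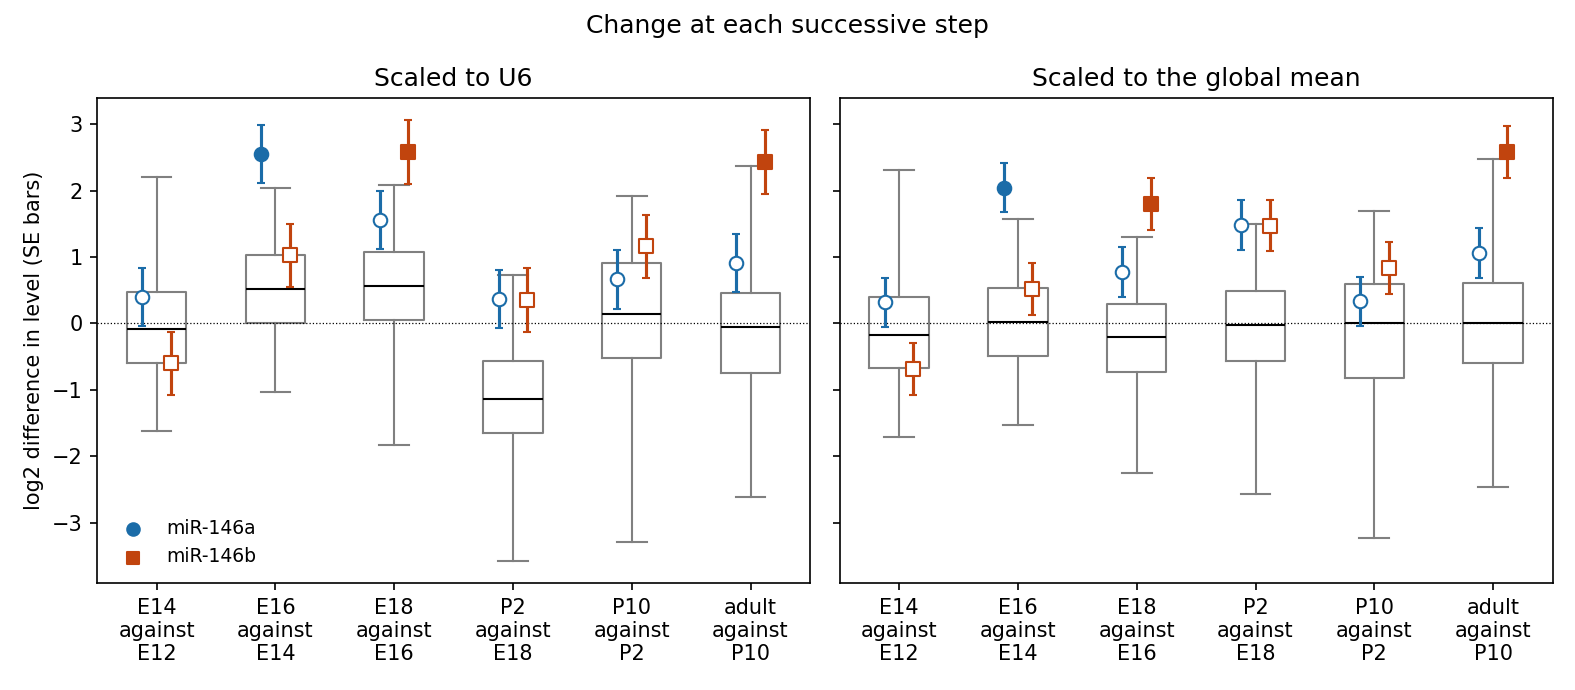
log2 difference in level at each of the 6 successive steps, later age minus earlier age, for miR-146a (circles) and miR-146b (squares) with limma SE bars, scaled to U6 (left) and to the global mean (right); filled symbols passed an adjusted p below 0.05, and boxes show the median and quartiles of the 350 assays with whiskers at the 5th and 95th percentiles. On both scales miR-146a passed at E16 against E14 (2.55 and 2.04) and miR-146b at E18 against E16 (2.58 and 1.79) and at adult against P10 (2.43 and 2.58).

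Over longer spans both miRNAs passed the test. Before birth miR-146a was 4.50 higher at E18 than at E12 (SE 0.437, 22.7-fold, adjusted p = 0.000181) and miR-146b 3.003 higher (SE 0.480, 8.02-fold, adjusted p = 0.00167), where 30% of the assays were called higher and the median of all assays was 0.99. On the global mean scale these differences were 3.13 (8.75-fold, adjusted p = 0.000714) and 1.63 (3.10-fold, adjusted p = 0.0144), where 11.4% of the assays were called higher and the median was -0.38. From late gestation on, miR-146b was 3.94 higher in the adult than at E18 (SE 0.480, 15.4-fold, adjusted p = 0.000219) and miR-146a 1.93 higher (SE 0.437, 3.82-fold, adjusted p = 0.00788), where 5.43% of the assays were called higher, 29.1% were called lower and the median was -1.04. With the global mean the differences were 4.89 for miR-146b (29.6-fold, adjusted p = 1.80e-05) and 2.88 for miR-146a (7.35-fold, adjusted p = 0.000333), where 15.7% of the assays were called higher, 20.6% were called lower and the median was -0.09. These 2 comparisons were added after the values were seen.

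Expressed as a share of the rise between the E12 and adult means, miR-146a had covered 45.7% by E16 and 70.0% by E18, where miR-146b had covered 6.06% and 43.2%. At P10 the shares were 85.9% and 65.0%. These shares moved with the scale. With global mean scaling, miR-146a had covered 39.2% and miR-146b -2.53% by E16, and 52.1% and 25.01% by E18. The negative share stands for a mean level at E16 below that at E12. MiR-146a was ahead of miR-146b at every age between E14 and P10 on both scales.

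The difference between the 2 miRNAs within a sample shows this offset without any scaling. Under the names given by the rule, both assays lie on card A, in neighbouring wells of row 4 (columns 13 and 14) in all 14 card A run files, so that the U6 value cancels. The ΔCT of miR-146b minus that of miR-146a was 0.994 and 1.001 at E12, then 1.99 and 2.00 at E14, and 3.01 and 4.03 at E16. It was 1.97 and 3.02 at E18, and after birth 2.00 and 3.02 at P2, 2.02 and 2.00 at P10, and -0.04 and 1.01 at the adult stage. All 14 differences lay within 0.036 of a whole number of cycles, which is the step of the data. MiR-146a read higher in 13 of the 14 samples.

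In terms of level, the ratio of miR-146a over miR-146b was 1.99 and 2.00 at E12, 8.05 and 16.3 at E16, 4.05 and 4 at P10, and 0.976 and 2.01 at the adult stage. Each ratio, and its change with age, assumes that both assays double their product in each cycle. A constant offset between the assays cancels in the change. The gap was widest at E16 and narrowest in the adult, and the E16 samples did not overlap those of E12, E14, P10 or adult. The ratio of 16.3 comes from 1 E16 sample, against 8.05 in the other. How much of either miRNA was read by the assay of the other was not tested.

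**Figure D4:**
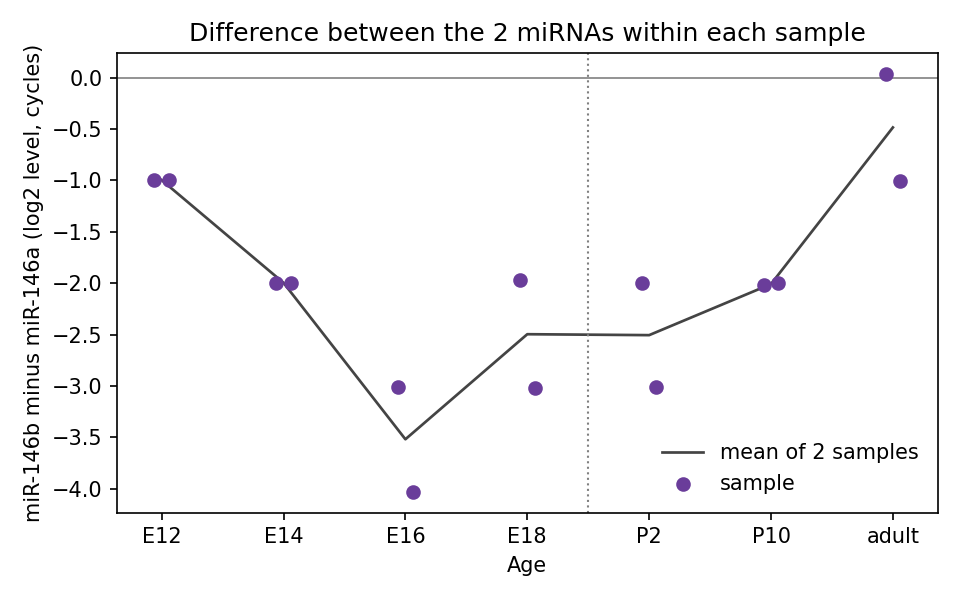
Level of miR-146b minus that of miR-146a within each sample (log2, cycles) by age, with points for single samples, the line through the mean of 2 samples and the dotted line at birth; values below 0 mean that miR-146b read lower. The means are -0.998 at E12, -3.52 at E16 and -0.49 in the adult.

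The dependence of this difference on age was tested with a permutation F test over the 7 ages, chosen after the values were seen. F was 6.69 with a permutation p of 0.0123 (100000 resamples), and without any 1 of the 14 samples the permutation p lay between 0.00674 and 0.0369. No single contrast of 2 ages can be tested this way, since 2 samples against 2 allow no exact two-sided p below 0.333. Between the ends of the course the difference did not separate: in the adult the log2 level of miR-146b minus that of miR-146a was -0.49 ± 0.737 and at E12 -0.998 ± 0.00441 (SD, n = 2 each), a change of 0.51 with an exact permutation p of 1. Postnatal samples had a difference of -1.67 ± 1.05 (SD, n = 6) and embryonic samples one of -2.25 ± 1.05 (SD, n = 8), a change of 0.59 with an exact permutation p of 0.390.

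The age profiles of the 2 miRNAs were alike but not the most alike in the table. Across the 7 age means their Pearson correlation was 0.930, and among the 218 other assays measured in all samples 30 followed miR-146a more closely than miR-146b did and 18 followed miR-146b more closely than miR-146a did. Over the 14 samples r was 0.918, and over the global-mean-scaled age means it was 0.924. These correlations are descriptions over the same libraries, in which assays that rise with age correlate with one another, and 34 assays had an r above 0.9 with miR-146a and 26 with miR-146b. Over the U6-scaled age means, the profile nearest to miR-146a was that of assay 420, with r = 0.995 and a mean ΔCT of 7.15 in the adult and 12.1 at E12. The nearest to miR-146b was assay 402, with r = 0.975 and 1.65 in the adult and 5.10 at E12. On the same measure, the profiles most opposed were those of assay 580 for miR-146a (r = -0.879, 8.65 in the adult and 5.58 at E12) and assay 2459 for miR-146b (r = -0.946, 7.63 in the adult and 5.07 at E12). Assay 420 was also nearest over the 14 samples and under the global mean, and assay 402 under the global mean but not over the 14 samples. Other assays were the most opposed to each miRNA on both of those measures. The files give these 4 assays no miRNA name.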

How the data were processed

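Small RNAs were quantified by TaqMan real-time PCR after multiplex reverse transcription of total RNA, on 2 array cards (A and B) per sample. The authors deposited ΔCT against U6, which their methods treat as log2 values, and the 28 run files, which hold plate layouts but no CT. Undetermined reactions were set to an upper CT limit in the methods, whereas 2888 of the 7224 deposited values are blank. In E14 replicate 2, 5 values below 0.001 were first turned into blanks. The filter kept the 350 assays with values in both samples of 1 age or more. All blanks, these 5 included, were then set to the highest deposited ΔCT (19.9) for the fits. Minus ΔCT was fitted with limma 3.58.1 (R 4.3.3; 1 mean per age, 14 samples, two-sided tests, Benjamini-Hochberg over 350 assays), after the procedure was tested on simulated data. Single values were tested by exact permutation of samples, which treats the 2 samples of an age as independent. Precision is limited by 2 samples per age. Alternatives were global mean scaling, other filters, blanks as missing, an ordinary linear model, a variance trend, replicate number or card A saved day as a block, and leaving out each sample.

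The members and lists were chosen with earlier results of these data known. Other miRNAs were to be named by likeness of profile or from lists (miRNAs of NF-kB signalling, other hairpin arms, blood cells, lung markers), but the names in the run files are not paired with the rows' numbers, so none was tested by name.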

Additional observations from a re-analysis of the deposited data

How the results depend on the processing

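Besides leaving out samples, 200 alternative values were computed for the results on both miRNAs: 193 kept direction and call, 2 lost the call and 5 gained it. Neither miRNA had a blank, so the filters, blanks as missing, ordinary linear model, variance trend and replicate block left their log2 differences unchanged. Under these only the call could differ, and direction could differ only with global mean scaling or the card A day block. The call of miR-146a between E16 and E14 was lost with an ordinary linear model (2.55, adjusted p = 0.0640) and with card A day as a random block (2.56, adjusted p = 0.0665). MiR-146a at E18 against E16 gained it among assays measured in all samples, with blanks as missing and with a variance trend (1.56; adjusted p 0.0168, 0.0427 and 0.0439). At P2 against E18, global mean scaling with assays measured in all samples (chosen after seeing the data) gave calls at 1.48 for miR-146a and 1.47 for miR-146b. The cause was not tested.

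Without 1 sample each, ranges for miR-146a were -0.0369 to 0.83 at E14 against E12 (reversed without E12 replicate 1), 2.11 to 2.98 at E16 against E14, 1.13 to 1.99 at E18 against E16 and -0.10 to 0.82 at P2 against E18 (reversed without P2 replicate 2). For miR-146b they were 2.05 to 3.11 at E18 against E16, -0.17 to 0.88 at P2 against E18 (reversed without E18 replicate 2) and 1.89 to 2.97 at adult against P10. The change in miR-146b minus miR-146a between adult and E12 ranged from -0.00917 (without adult replicate 1) to 1.03. Adult against E12 stayed called for both, at 6 to 6.87 and 6.41 to 7.48.

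Numbers of assays called at single steps moved more: 6 at E14 against E12 (1 to 12 over all alternatives), 3 at E16 against E14 (0 to 17), 20 at E18 against E16 (10 to 52), 81 at P2 against E18 (8 with the global mean, 14 without E18 replicate 1, 23 without P2 replicate 1), 35 at P10 against P2 (13 to 66), 23 at adult against P10 (41 among assays measured in all samples) and 112 at E18 against E12 (64 without E18 replicate 1, 74 without E12 replicate 1). The main counts are out of 350 assays, but the upper ends 12, 17, 52 and 66 are out of the 219 measured in all samples.

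The replicate numbers did not pair the samples: same-numbered samples deviated together with correlations from -0.23 to 0.11, above 0.1 for 3 of 21 pairs of ages. With the replicate number as a block, adult against E12 was 6.43 and 6.95, and the block changed no call of either miRNA. The block cannot move these differences, as each age holds both replicate numbers.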
